A study of Homo sapiens with 6 samples.

Results

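Secreted interstitial matrix genes were examined in HCC1806/HM3 cells (HCC1806-HM3 in the labels), a liver-metastatic derivative of the human triple-negative breast cancer line HCC1806 obtained by passage through mice, which the labels describe as breast squamous cell carcinoma. The 10 genes, of 17860 listed, were chosen by name: LUM, DCN and BGN (small leucine-rich proteoglycans), VIT (a matrix protein with von Willebrand factor A domains), HMCN1, FBLN1 and EFEMP1 (the hemicentin and fibulin family), and TNC, THBS1 and POSTN (matricellular proteins). LUM, VIT and HMCN1 were picked because they were higher after MSLN knockdown, so their differences are given as a description with no test. The other 7 were taken as genes of the same kind and were tested.

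All samples were HCC1806/HM3 cells infected with lentivirus and selected with G418. The control group (shNC, genotype Control in the labels) carried a control shRNA and had 3 samples, and the shMSLN group (genotype MSLN knockdown) carried an shRNA against MSLN and had 3 samples. The labels give 1 shMSLN line, and do not say whether the 3 samples of a group came from separate cultures, so p-values measure the spread between these samples, which may be technical. Oligo(dT)-enriched mRNA was made into libraries with a BGI kit, and levels are given as CPM (estimated reads relative to the library size, scaled by the TMM method) or, where genes are compared with each other, as the deposited TPM, which are also scaled for transcript length.

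The interstitial matrix is the loose protein network between cells. Small leucine-rich proteoglycans bind collagen fibrils and set their spacing, and decorin, the product of DCN, is also known to bind EGFR and other receptor tyrosine kinases. Fibulins and hemicentins are elongated glycoproteins that link elastic fibres and basement membranes to other matrix components, while matricellular proteins such as thrombospondin-1, tenascin-C and periostin act mainly on cell adhesion and signaling. In tumors most of this matrix is made by fibroblasts, although carcinoma cells can make part of it.

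Depth was similar in all samples, with 17507837 to 18512135 estimated reads. MSLN was at 231, 226 and 227 CPM in the shNC samples and at 37.1, 36.2 and 35.4 CPM in the shMSLN samples. The shMSLN columns lack values for 695 to 1103 genes and the shNC columns for 0, and all 10 matrix genes had a value in every sample. Genes at 0 reads numbered 1094 to 1150 in the shNC columns, 0 in shMSLN replicate 1 and 405 and 393 in shMSLN replicates 2 and 3. What the missing marks stand for is not given in the sources used here. Whole-number counts made up 47.7% of the genes above 100 reads in shMSLN replicates 2 and 3 but 3.36% to 7.02% in the other 4 samples, and the sources used here give no reason for this. Of the 14552 genes tested with edgeR's quasi-likelihood test, 34.6% had an adjusted p below 0.05 (called, below), 16.6% being higher and 18% lower in shMSLN cells, and the groups did not overlap for 46.2%.

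The targets of the MSLN shRNAs used in the study are given below, and the sources used here do not say which of them the sequenced cells carried. They are shown because a stretch of the same letters in a matrix transcript would be a place where the shRNA could also pair.

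MSLN shRNA1: tggccaacccacctaacattt
MSLN shRNA2: ctggacgtcctaaagcataaa

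Each target matched MSLN transcripts over its full 21 bases (GENCODE release 29). In the transcripts of the 10 matrix genes the longest exact run was 7 to 9 bases for either MSLN target and 6 to 9 bases for the 19-base control sequence. The runs were taken from any part of the target. Whether an shRNA acts on these transcripts through such short stretches was not tested.

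Of the 10 genes, 9 passed the filter on low counts and POSTN did not. Among the 6 tested genes that were not picked for a rise, 4 were called, against 34.6% of all tested genes, and with so few genes nothing is read from that share. DCN, FBLN1 and EFEMP1 rose and THBS1 fell, whereas BGN and TNC did not pass. In bulk RNA, more cells that make a transcript and more RNA per cell cannot be told apart. By deposited TPM the genes fell into a group of 5 abundant transcripts and a group of 5 scarce ones. In shNC cells the order was EFEMP1 at 467 ± 22.5 TPM, FBLN1 at 334 ± 10.7, THBS1 at 172 ± 7.61, LUM at 49.5 ± 2.04 and VIT at 49.3 ± 3.37 TPM (SD, n = 3 each), and LUM and VIT did not differ beyond their spread. The remaining genes were each below 1 TPM, from TNC at 0.877 ± 0.122 TPM to POSTN at 0.0767 TPM on average.

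**Figure D1:**
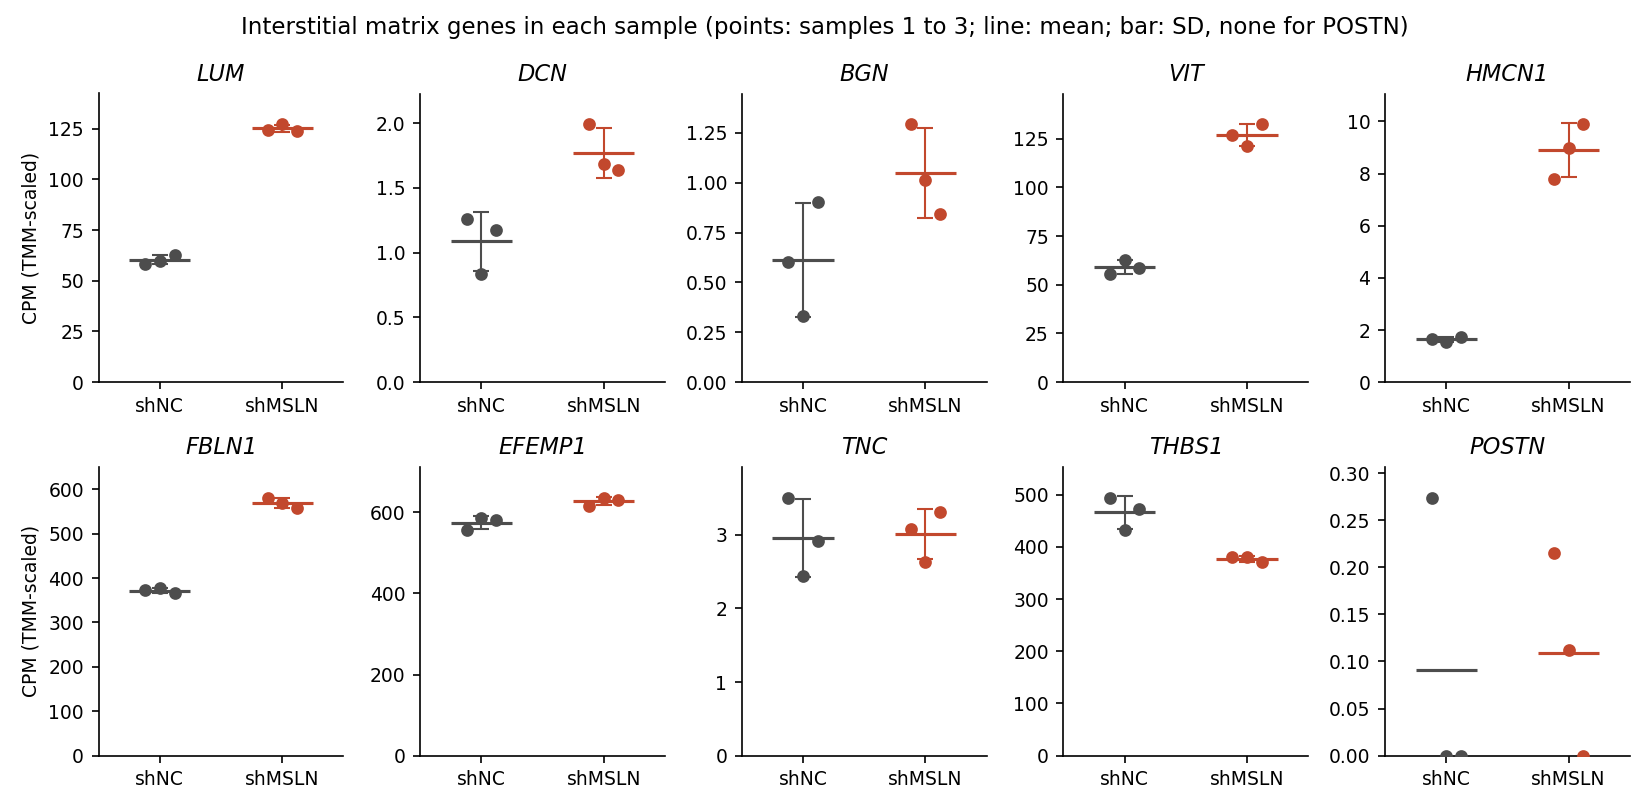
TMM-scaled CPM (vertical axis, from 0, a different scale for each gene) of the 10 matrix genes in shNC (grey) and shMSLN (red) samples; points are samples, lines are means and bars are SD over 3 samples, with none drawn for POSTN. The groups are apart for LUM, DCN, VIT, HMCN1, FBLN1, EFEMP1 and THBS1, and overlap for BGN, TNC and POSTN.

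LUM, NCBI Gene 4060, encodes lumican, a keratan sulfate proteoglycan that regulates collagen fibril assembly. Its gene spans bases 91102629 to 91111831 of chromosome 12, with all gene positions in the GRCh38 build from GENCODE release 29. LUM was at 58.4, 59.8 and 62.7 CPM in shNC replicates 1, 2 and 3 and at 125, 127 and 124 CPM in shMSLN replicates 1, 2 and 3. The shMSLN samples lay close together and far above the shNC samples, a difference of 1.05 on the log2 scale (standard error 0.043). These values rest on 1067 to 1127 reads in shNC and 2191 to 2318 reads in shMSLN samples.

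DCN, NCBI Gene 1634, is the neighbor of LUM on chromosome 12 (91140484 to 91183123) and encodes decorin. It was at a very low level, with 22.97, 15 and 21.04 estimated reads in the shNC samples and 37, 30 and 29 in the shMSLN samples. The corresponding levels were 1.26, 0.831 and 1.17 CPM against 1.99, 1.68 and 1.64 CPM, so that the groups did not overlap. By edgeR the difference was 0.70 on the log2 scale with a standard error of 0.25 and an adjusted p of 0.0389. DESeq2 did not call it (adjusted p = 0.145), and when single samples were omitted only the fit lacking shNC replicate 1 still did, at adjusted p-values of 0.0366 to 0.134. In deposited TPM the mean of DCN was 0.343 ± 0.0643 in shNC and 0.677 ± 0.110 in shMSLN samples (SD, n = 3 each), a wider gap than in CPM. In shMSLN replicate 2, 1 TPM of DCN stood for 37.5 reads, against 49.2 to 58.9 reads in the other samples.

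BGN, NCBI Gene 633, on chromosome X from 153494939 to 153509554, encodes biglycan, a proteoglycan that also signals through Toll-like receptors when released from the matrix. It had 11.03, 6 and 16.23 reads in shNC samples and 24.05, 18.11 and 14.94 reads in shMSLN samples. The groups overlapped, as shNC replicate 3, at 0.903 CPM, was above shMSLN replicate 3, at 0.844 CPM. The log2 fold change of 0.78 did not pass (standard error 0.35, approximate 95% interval 0.090 to 1.48, adjusted p = 0.101 from edgeR). At 0.333 CPM, shNC replicate 2 lay below the low-count filter's cutoff of 0.55 CPM, whereas every shMSLN sample lay above it. BGN thus passed the filter through the shMSLN samples, and no rise is read from the interval. BGN overlaps HAUS7 on the other strand, and the strand setting of the counting is not given in the sources used here.

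VIT, NCBI Gene 5212, encodes vitrin and lies on chromosome 2 from 36696690 to 36814792. It was at 55.7, 62.8 and 58.7 CPM in the shNC samples and at 127, 121 and 132 CPM in the shMSLN samples. As for LUM, the lowest shMSLN sample was well above the highest shNC sample, and the log2 fold change was 1.10 (standard error 0.051). LUM and VIT had nearly the same length-scaled level, and the ratio of LUM to VIT in TPM was 1.03, 0.957 and 1.03 in shNC samples and 1.01, 1.03 and 0.912 in shMSLN samples. The ratio was near 1 in both groups, while both levels went from about 49 to above 100 TPM. Both genes were picked for their rises and began at nearly the same level. A steady ratio therefore comes with that choice, and no link between LUM and VIT is read from it.

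HMCN1, NCBI Gene 83872, encodes hemicentin-1, a very large protein with many immunoglobulin domains, on chromosome 1 from 185734551 to 186190949. It had the largest fold change of the 10 genes. It was at 1.64, 1.55 and 1.72 CPM in shNC samples and at 7.81, 8.97 and 9.88 CPM in shMSLN samples, from 28 to 30.94 and from 145 to 175 reads. The log2 fold change was 2.43 (standard error 0.16). Because the transcript is long, this came to a change from 0.203 ± 0.00577 to 1.16 ± 0.131 TPM (SD, n = 3 each), still far below LUM and VIT. Against the mean of the shNC samples the log2 ratio was 2.25 in shMSLN replicate 1 alone and 2.52 in replicates 2 and 3 together, whereas for LUM these values were 1.05 and 1.06 and for VIT 1.10 and 1.10.

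FBLN1, NCBI Gene 2192, encodes fibulin-1, which binds fibronectin and elastic fibres, on chromosome 22 from 45502238 to 45601135. It rose from 374, 377 and 366 CPM in shNC samples to 580, 569 and 558 CPM in shMSLN samples. No other member gained as many transcripts, with an increase of 184 TPM in the group means, from 334 to 518 TPM. On the log2 scale FBLN1 rose by 0.61 with a standard error of 0.034 (edgeR, adjusted p = 6.56e-09), and by 0.60 to 0.63 when single samples were omitted.

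EFEMP1, NCBI Gene 2202, encodes fibulin-3, an EGF-domain protein of the same family, on chromosome 2 from 55865967 to 55924139. It was at 556, 587 and 580 CPM in shNC samples and at 616, 635 and 629 CPM in shMSLN samples. The groups did not overlap, but the rise was small, at 0.13 on the log2 scale with a standard error of 0.034 (edgeR, adjusted p = 0.0103). It no longer passed when shMSLN replicate 2 was omitted (adjusted p = 0.0667), and the lowest adjusted p with a sample omitted was 0.00368. The ratio of FBLN1 to EFEMP1 in TPM, which does not depend on the scaling of libraries, was 0.742, 0.707 and 0.697 in shNC samples and 1.03, 0.981 and 0.973 in shMSLN samples. In every shMSLN sample this ratio was above that of every shNC sample, so fibulin-1 mRNA came level with fibulin-3 mRNA.

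THBS1, NCBI Gene 7057, encodes thrombospondin-1, an inhibitor of angiogenesis and an activator of latent TGF-beta, on chromosome 15 from 39581079 to 39599466. It was the only member that fell. Its levels were 494, 432 and 472 CPM in shNC samples and 380, 380 and 371 CPM in shMSLN samples, with no overlap. It fell by 0.31 on the log2 scale with a standard error of 0.044 (edgeR, adjusted p = 9.15e-05), and the log2 value stayed between -0.36 and -0.26 when single samples were omitted. The ratio of FBLN1 to THBS1 in TPM went from 1.84, 2.11 and 1.88 to 3.69, 3.61 and 3.65. THBS1 overlaps FSIP1 on the other strand, whose mean was 9.31 ± 1.68 CPM without and 11.5 ± 0.495 CPM with the knockdown (SD, n = 3 each), far below THBS1.

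TNC and POSTN, on chromosome 9 (115019578 to 115118257) and chromosome 13 (37562583 to 37598844), encode tenascin-C and periostin, which are abundant in the stroma of many tumors. TNC was at 3.50, 2.44 and 2.91 CPM in shNC samples and at 3.08, 2.63 and 3.31 CPM in shMSLN samples. The groups overlapped, and the log2 fold change of 0.031 did not pass (approximate 95% interval -0.34 to 0.40, edgeR adjusted p = 0.916). TNC overlaps DEC1, and HMCN1 overlaps an antisense transcript, so reads of these partners may be included. POSTN had 5, 0 and 0 reads in shNC samples and 4, 2 and 0 reads in shMSLN samples. A count of 0 allows up to 3 reads, or 0.161 to 0.169 CPM here, and covers counting error only, so no difference of POSTN was detectable.

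**Figure D2:**
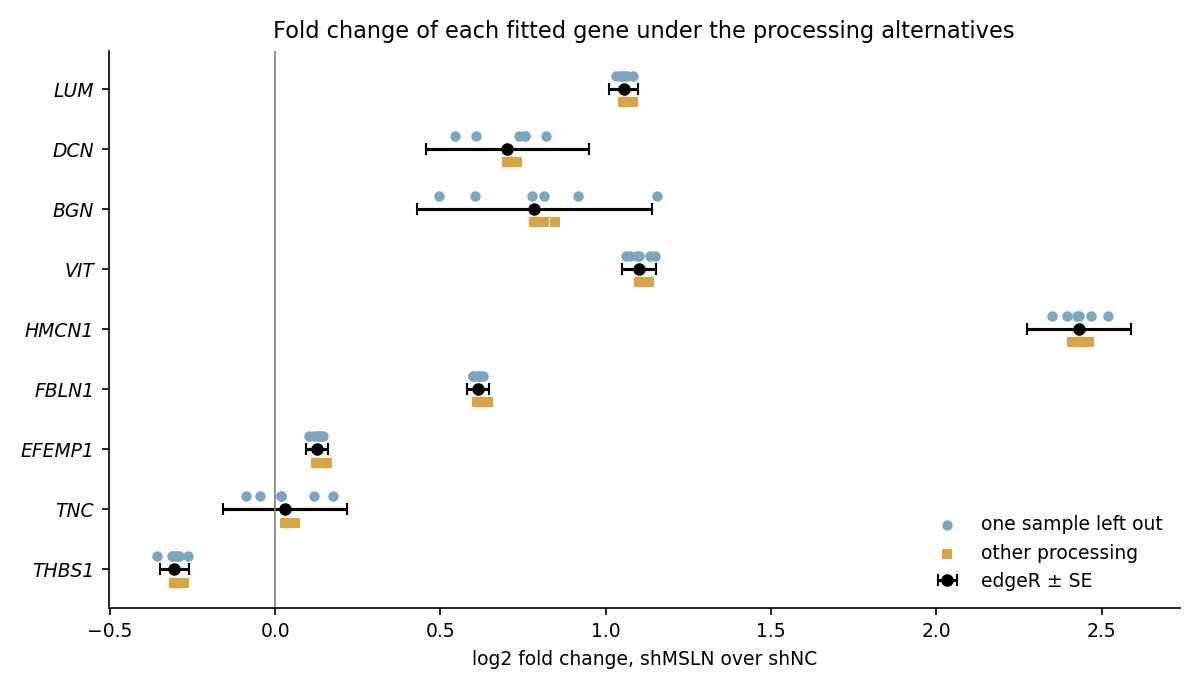
Log2 fold change of shMSLN over shNC (horizontal axis) for the 9 genes that passed the count filter; black points are the edgeR values with their standard errors, blue points are fits with 1 sample left out and yellow squares are other scalings, filters and tests. LUM, VIT, HMCN1 and FBLN1 stayed within narrow ranges, DCN and BGN ranged widely but stayed above 0, and TNC lay on both sides of 0.

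For each tested member, the exact two-sided permutation test of CPM over samples gave p = 0.1 where the groups did not overlap, the smallest that 3 samples against 3 allow, p = 0.2 for BGN and p = 1 for TNC.

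Counted together, the 10 genes made up 1048 to 1104 TPM in shNC samples and 1383 to 1409 TPM in shMSLN samples, an increase of 323 TPM in the means. EFEMP1, FBLN1, THBS1, LUM and VIT made up at least 99.7% of the sum in every sample. The share of FBLN1 in this sum went from 31.1% ± 0.542 to 37.1% ± 0.692, that of LUM from 4.61% ± 0.144 to 7.53% ± 0.0755 and that of VIT from 4.59% ± 0.200 to 7.67% ± 0.448 (SD, n = 3 each). The share of EFEMP1 went from 43.5% ± 1.0 to 37.3% ± 0.512, although its own level rose, and that of THBS1 from 16.1% ± 1.1 to 10.2% ± 0.132. The sums contain LUM and VIT, which were picked for their rises, and have no test for this reason.

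Promoter windows of 300 bases (250 before and 50 after the gene start, RefSeq, GRCh38.p14) were at hand for 6 of the 10 genes, VIT, BGN, FBLN1, TNC, THBS1 and POSTN. The windows of VIT and FBLN1, which were higher in shMSLN cells, and of THBS1, which fell, are shown to compare their base composition. RefSeq and GENCODE give different starts for FBLN1. Its window therefore lies inside the gene as placed above, which starts at base 45502238, and not before that start. Capitals mark the GC box letters GGGCGG or, on the other strand, CCGCCC, which are held by 44.9% of all windows of this length.

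VIT, chr2:36696457-36696756, forward strand: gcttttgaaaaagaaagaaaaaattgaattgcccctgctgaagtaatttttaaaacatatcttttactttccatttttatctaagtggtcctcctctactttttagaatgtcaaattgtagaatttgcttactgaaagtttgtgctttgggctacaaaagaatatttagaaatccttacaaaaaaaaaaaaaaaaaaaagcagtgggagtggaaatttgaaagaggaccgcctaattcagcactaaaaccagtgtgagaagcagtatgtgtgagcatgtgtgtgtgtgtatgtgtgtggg
FBLN1, chr22:45502633-45502932, forward strand: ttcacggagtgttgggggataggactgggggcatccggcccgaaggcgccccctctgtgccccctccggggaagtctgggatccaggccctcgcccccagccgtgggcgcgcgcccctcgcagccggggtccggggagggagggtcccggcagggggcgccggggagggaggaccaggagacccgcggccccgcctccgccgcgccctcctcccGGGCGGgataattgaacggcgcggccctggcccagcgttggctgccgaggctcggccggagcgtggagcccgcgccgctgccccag
THBS1, chr15:39580829-39581128, forward strand: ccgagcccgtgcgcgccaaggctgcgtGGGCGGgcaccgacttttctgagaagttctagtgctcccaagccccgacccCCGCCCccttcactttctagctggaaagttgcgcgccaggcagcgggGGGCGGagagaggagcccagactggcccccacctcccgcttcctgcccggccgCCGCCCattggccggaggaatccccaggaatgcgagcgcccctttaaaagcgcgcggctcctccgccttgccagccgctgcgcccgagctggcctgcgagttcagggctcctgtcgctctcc

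The GC content was 33.7% in the VIT window, lower than in all but 3.14% of windows, 78% in the FBLN1 window and 70% in the THBS1 window. VIT and FBLN1, whose levels both went up, thus stood at opposite ends of base composition. The GC box letters occurred 0 times in the VIT window, once in that of FBLN1 and 4 times in that of THBS1. The AP-1 letters TGANTCA, searched on both strands and held by 7.72% of all windows, were in none of these 3 windows. The TEAD letters GGAATG (14% of windows) and the EGR letters GCGNGGGCG (9.41%) were each found once in the THBS1 window, where the EGR match overlaps a GC box, and 0 times in those of VIT and FBLN1. A match is a description of the letters and not a site of binding.

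The genes beside LUM, VIT and HMCN1 were taken by position in the RefSeq gene table. LUM lies in a cluster of small leucine-rich proteoglycan genes with EPYC, KERA and DCN. KERA had 0 reads and EPYC at most 1 read in every shNC sample. In shMSLN replicates 2 and 3 KERA had 1 and 1 reads and EPYC 0 and 1. Both lacked a value in shMSLN replicate 1, so neither was tested. DCN is described above, and BTG1, the next gene on that side, was at 0.095 on the log2 scale and was not called (adjusted p = 0.0687). Around VIT, CRIM1 rose by 0.25 on the log2 scale (adjusted p = 0.000193) and HEATR5B fell by 0.12 (adjusted p = 0.0389), while FEZ2 and STRN were not called, at 0.055 and -0.046. Around HMCN1, SWT1, IVNS1ABP and TPR had log2 fold changes of 0.10, 0.070 and 0.057 and were not called, and PRG4 was too low to be tested. All these values are from the same edgeR fit. LUM, VIT and HMCN1 were picked for their rises, so they are drawn beside the neighbors for position only, and nothing is read from the contrast.

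Other matrix genes were examined as 7 lists, which did not include the 10 genes above. Of 117 genes listed, 82 were tested, and 33 were higher and 14 lower in shMSLN cells, 57.3% of those tested against 34.6% of all tested genes. Their median log2 fold change was 0.21, beside 0.0019 over all tested genes. With DESeq2 24 were higher and 13 lower, 45.1% of those tested against 26.5% of all tested genes. Of the 47 genes called by edgeR, 4 (PODNL1, MFAP5, BCAN and HAPLN4, named for this reason) passed the low-count filter only through the shMSLN samples, in which they were higher, so their calls carry no weight, and without them 29 were higher and 14 lower. The shares and the median above still include these 4 and any uncalled genes that passed in the same way. The lists were also chosen with earlier results of these data known. The shares and the median are therefore a description, and no rise of matrix genes as a whole is read from them.

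The small leucine-rich proteoglycans other than LUM, DCN and BGN were scarce, and only 5 of 13 were tested. Of these 1 was higher and 0 were lower, 20% against 34.6% of all tested genes, with a median log2 fold change of 0.19. CHAD, which encodes chondroadherin and was the most abundant of them at 2.56 TPM in shNC cells, was not called (log2 fold change 0.037, adjusted p = 0.886). The 1 called gene was PODNL1, at 0.586 CPM in shNC and 1.25 CPM in shMSLN cells, and it is among the 4 that passed the filter only through the shMSLN samples.

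Of the 14 tested genes for other fibulins, fibrillins and elastic fibre proteins, 9 (MFAP5 included) were higher and 0 lower. The called share was 64.3%, against 34.6% of all tested genes, and without MFAP5 8 were higher. The median log2 fold change, with MFAP5, was 0.46. HMCN2, another hemicentin gene of this list, was too low to be tested. It had 6.99, 11 and 11.86 reads in shNC samples and 7, 5 and 4 reads in shMSLN samples, so it showed no rise. LTBP1 and LTBP2, which encode proteins that bind fibrillin and, for LTBP1, hold latent TGF-beta in the matrix, had the largest rises among those averaging at least 1 CPM. LTBP1 went from 12.6 ± 1.38 to 26.6 ± 0.984 CPM (SD, n = 3 each; log2 fold change 1.08, adjusted p = 1.28e-07). LTBP2 went from 25.6 ± 1.15 to 46.1 ± 0.708 CPM (log2 fold change 0.85, adjusted p = 3.37e-08). FBN2, which encodes fibrillin-2, rose by 0.53, and FBLN5, another fibulin, rose by 0.60 at an adjusted p of 0.0425. MFAP2, a microfibril component and the most abundant of the list at 152 TPM in shNC cells, rose by 0.28 (adjusted p = 0.000303).

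Of the 12 tested matricellular genes, 7 were higher and 1 lower, 66.7% against 34.6% of all tested genes. Their median log2 fold change was 0.22. SPP1, which encodes osteopontin, an integrin ligand, rose from 3.17 ± 0.839 to 8.80 ± 0.543 CPM (SD, n = 3 each; log2 fold change 1.47, adjusted p = 5.81e-06). TNN, a tenascin gene, rose by 1.02 on the log2 scale (adjusted p = 0.00117), unlike TNC, and CCN6 rose by 0.85 (adjusted p = 2.04e-07). CCN3 fell by 1.14 (adjusted p = 0.00725). TGFBI, the most abundant of the list at 297 TPM in shNC cells, was not called at 0.060 (adjusted p = 0.259).

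The group closest to VIT holds matrilins, other matrix proteins with von Willebrand factor A domains and hyaluronan-binding proteins. Of its 8 tested genes, 4 were higher and 2 lower, 75% of those tested against 34.6% of all tested genes. Without BCAN and HAPLN4, which passed the low-count filter only through the shMSLN samples, 2 were higher and 2 lower. The median of 0.48 includes BCAN and HAPLN4, so no shift of the list is read from it. MATN2, which encodes matrilin-2, rose from 7.36 ± 1.44 to 16.7 ± 0.569 CPM (SD, n = 3 each; log2 fold change 1.18, adjusted p = 1.62e-06), and MATN3 rose by 0.67 (adjusted p = 0.0354). VWA1, the most abundant at 33.4 TPM in shNC cells, fell by 0.19 (adjusted p = 0.0176) and HAPLN3, a link protein, by 0.46 (adjusted p = 0.00578).

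Of the 9 tested fibrillar collagen and adhesive glycoprotein genes, 4 were higher and 1 lower, with a median of 0.32. The called share was 55.6%, against 34.6% of all tested genes. The chains of type V collagen went in opposite directions. COL5A1 fell from 91.9 ± 4.84 to 47.5 ± 0.899 CPM (SD, n = 3 each; log2 fold change -0.95, adjusted p = 3.66e-09), whereas COL5A2 rose from 218 ± 6.21 to 343 ± 6.85 CPM (log2 fold change 0.65, adjusted p = 8.6e-09). The ratio of COL5A1 to COL5A2 in TPM was 0.316, 0.330 and 0.311 in shNC samples and 0.104, 0.106 and 0.105 in shMSLN samples, a ratio within each library that does not depend on its scaling. COL11A1 rose by 0.78 (adjusted p = 0.0317) and COL27A1 by 0.33 (adjusted p = 0.00149). The adjusted p-values in this and the other list paragraphs are from edgeR over all tested genes.

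Of the 16 tested enzymes and chaperones that process or crosslink collagen, 4 were higher and 3 lower, with a median of 0.033. This was 43.8% called, against 34.6% of all tested genes. Of the 5 tested lysyl oxidases, which crosslink collagen and elastin, LOXL2 rose by 0.90 (adjusted p = 0.000362) and LOX by 0.33 (adjusted p = 0.0363), LOXL1 and LOXL3 were not called (log2 fold changes -0.0084 and -0.21), and LOXL4 fell by 0.52, from 210 ± 4.23 to 147 ± 3.63 CPM (SD, n = 3 each; adjusted p = 1.07e-07). P4HA1, a prolyl hydroxylase, rose by 0.39 (adjusted p = 2.1e-05). SERPINH1, the collagen chaperone HSP47 and the most abundant of the list at 241 TPM in shNC cells, rose by 0.33 (adjusted p = 3.21e-05).

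Of the 18 tested cell-surface receptors for these proteins, 4 were higher and 7 lower, with a median of -0.032. The called share was 61.1%, against 34.6% of all tested genes. CD47, a receptor for thrombospondin-1, fell from 166 ± 8.55 to 132 ± 6.0 CPM (SD, n = 3 each; log2 fold change -0.33, adjusted p = 7.91e-05). CD36, another thrombospondin receptor, was low and not called, at 4.48 and 4.38 CPM. TLR2, through which biglycan signals, fell by 0.45 (adjusted p = 0.000178). ITGA2, a collagen-binding integrin subunit, fell by 0.33 (adjusted p = 5.25e-05), and SDC1, a heparan sulfate proteoglycan of the cell surface, rose by 0.35 (adjusted p = 2.81e-05). Among the collagen-activated kinases, DDR1, the most abundant of the list at 339 TPM in shNC cells, fell by 0.14 (adjusted p = 0.00509) and DDR2 rose by 0.54 (adjusted p = 0.0438). EGFR, to which decorin binds, rose by 0.18 (adjusted p = 0.00123). CD47, CD36 and EGFR, and PODNL1, HMCN2, LOXL1 and LOXL3 above, were named outside the naming rule, after their values were seen.

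Since fibroblasts are a main source of LUM, DCN and POSTN in tissue, markers of other cell types were examined. Of 10 fibroblast or mesenchymal markers, 8 were tested, 3 were higher (FAP, ACTA2 and TAGLN) and 0 lower, that is 37.5% against 34.6% of all tested genes. FAP passed the low-count filter only through the shMSLN samples. The summed level of the 10 markers was 39.8 to 42.8 TPM in shNC samples and 49.7 to 53.1 TPM in shMSLN samples. The defining collagen genes COL1A2 and COL3A1 were at most 0.12 TPM on average in either group, and PDGFRA was at 0.380 and 0.543 TPM (shNC, then shMSLN). The most abundant markers were THY1 at 13.5 and 15.3 TPM, COL1A1 at 11.45 and 11.8 TPM and ACTA2 at 11.1 and 16.4 TPM. TAGLN was at 1.78 and 2.86 TPM, and no marker was at 0 in all samples. FAP, a marker of activated fibroblasts, was at 0.407 and 0.850 TPM, far below LUM in either group. Epithelial markers were abundant, at 4622 to 5059 TPM in shNC and 4186 to 4337 TPM in shMSLN samples for 10 genes, of which 2 were higher and 5 lower, 70% of them against the same 34.6%. Of 4 tested endothelial markers VWF was higher (log2 fold change 0.41, edgeR adjusted p = 0.0273) and the others were not called, CDH5 being at -0.89 (adjusted p = 0.0503), and the list summed to 3.42 to 3.97 and 3.61 to 4.51 TPM. Leukocyte markers, of which 4 were tested with edgeR adjusted p-values of 0.202 and above, summed to 38.6 to 42.7 and 39.3 to 41.2 TPM. Most of this was CD68, at 31.6 TPM in shNC and 29.6 TPM in shMSLN cells. PTPRC was at 3.03 and 3.90, LYZ at 2.86 and 3.76 and CD14 at 2.49 and 3.04 TPM, whereas CD3E was at 0.06 TPM. The part of the mesenchymal markers in the changes of LUM, VIT and HMCN1 was not tested.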

How the data were processed

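RNA sequencing of 3 shNC and 3 shMSLN samples of HCC1806/HM3 cells was examined. The authors deposited 1 table with estimated counts, FPKM and TPM per gene and sample. The deposited estimated counts are not scaled for depth. The authors' TPM and FPKM values are scaled for length and depth, and FPKM was not used. The submitters' processing notes name GRCh38.p13, and the aligner, quantifier and annotation are not given in the sources used here.

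Columns were matched to samples by library name. Genes with a missing shMSLN value were left out, which kept 16573. Estimated counts were rounded to whole numbers, filtered with filterByExpr and compared by the quasi-likelihood test of edgeR 4.0.16 under R 4.3.3, with TMM scaling and no covariate, with Benjamini-Hochberg adjustment over 14552 genes. Standard errors are the log2 fold change over the square root of F. Intervals for fold changes use the normal quantile and cover the fitted error only.

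The genes and lists were chosen with earlier results of these data known. In each list, the named genes are the up to 4 called genes with the largest change among those averaging 1 CPM or more whose groups were apart, and the gene with the highest TPM in shNC cells. List genes named outside this rule are marked as such where the lists are described. On simulated counts with 200 genes changed by a fold of 2, edgeR recovered 93% among 14454 genes and called 19 unchanged genes. Alternatives were RLE and upper-quartile scaling, other filters, DESeq2 1.42.0, limma-voom (limma 3.58.1), the replicate number as a block, missing values as 0 and leaving out each sample. Those with shMSLN replicate 1, or replicates 2 and 3, alone against shNC were chosen after seeing the data.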

Additional observations from a re-analysis of the deposited data

How the results depend on the processing

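The fold changes of LUM, VIT, HMCN1, DCN, BGN, FBLN1 and EFEMP1 stayed above 0 and that of THBS1 below 0 in every alternative that gave a value (BGN had none with at least 10 counts required in every sample). TNC had no settled sign: its log2 fold change was -0.087 without shNC replicate 2 and -0.045 without shMSLN replicate 3, and the highest value was 0.17. Of the 7 genes not picked for a rise, between 2 and 4 were called with each sample left out, 2 of them (FBLN1 and THBS1) without shMSLN replicate 2, where DCN and EFEMP1 were lost. The count was 3 with DESeq2. BGN was called in none of its alternatives. Upper-quartile scaling raised the median of all genes to 0.031 and EFEMP1 to 0.16, with 2911 genes called higher and 2149 lower against 2411 and 2621 with TMM. The number of called genes in the 7 lists was 36 to 48, and that of all called genes 3695 (without shMSLN replicate 2) to 5789. The labels give both groups the same replicate numbers, but the deviations of same-numbered samples correlated at 0.072 to 0.165, not above 0.1 in every pair, so the numbers were not taken as pairs, although each sample correlated best with its own number. With the replicate block 5789 genes, 4 of the 7 genes and 46 list genes were called. Below about 40 reads (DCN, BGN, POSTN) counting error limits any difference.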
